A study of Mus musculus with 12 samples.

Results

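The H3K4me1 and H3K4me3 peaks of mouse chromosomes 4, 16 and 19 were compared between Fbxw7 KO and WT mouse embryonic fibroblasts, to see whether genotype differences ran along whole chromosomes, along parts of them or at single loci. All peaks on the 3 chromosomes in the 4 H3K4me1 and 4 H3K4me3 lists were taken and merged per mark wherever peaks shared at least 1 bp. This gave 10920 of 94400 H3K4me1 regions and 2215 of 17842 H3K4me3 regions. Chromosome 4 held 4833 H3K4me1 and 1084 H3K4me3 regions, chromosome 16 held 3256 and 523, and chromosome 19 held 2831 and 608. The 3 chromosomes were selected on their H3K4me1 peak share and pileup, which had differed between the genotypes in these same libraries. The H3K4me1 values are therefore given as a description with no test, and tests were kept to H3K4me3. The reference chromosomes were the other autosomes without chromosome 10, 15 in all, called the comparison autosomes here.

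The libraries were made by Cut & Run, in which a nuclease tethered to an antibody cuts out the chromatin that carries a mark, so that the freed DNA can be sequenced. The labels give the genotypes as fbxw7 KO and WT, both as fibroblasts from mouse embryos grown in DMEM with FBS and NEAA, and each mark had 2 libraries per genotype. They give neither the design of the deletion nor the origin of the libraries within a group (embryos, lines or cultures), so the p-values below measure the spread among these samples, and that spread may be technical. Each deposited peak carries a pileup, the number of fragments stacked over its summit, which was not scaled to depth.

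Methylation of lysine 4 on histone H3 marks regulatory DNA in an active or poised state. H3K4me1 is spread over enhancers and is written largely by MLL3 and MLL4, whereas H3K4me3 is concentrated at promoters, most of all at those rich in CpG, and is written by the SET1 and MLL1/2 complexes. Fbxw7 is the substrate receptor of an SCF ubiquitin ligase and targets regulators such as cyclin E, Myc, Jun and Notch for degradation.

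Depth after duplicate filtering was 11604131 to 13627038 fragments in the H3K4me1 libraries. It was 5519477 to 6185767 in the H3K4me3 libraries apart from WT replicate 1, which had 11319701. On the 3 chromosomes, H3K4me1 lists held 6704 and 5795 peaks in KO libraries and 7078 and 6417 in WT libraries, and H3K4me3 lists held 1284 and 1389 peaks in KO and 2171 and 1998 in WT. The median H3K4me3 pileup of a whole list was 16 and 17 in KO and 72 and 39 in WT, so every level below is relative to the comparison autosomes of the same library. The Fbxw7 gene, on chromosome 3, carried 1 H3K4me3 peak in each KO library and 2 and 3 in the WT libraries, and since the deleted part is not given this does not check the genotype labels. Of 13 fibroblast markers 11 had H3K4me3 at a gene end in 1 library or more, as did 1 of 4 endothelial, 1 of 4 haematopoietic, 1 of 4 epithelial, 2 of 4 neural and 0 of 3 pluripotency markers.

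The promoter windows below, 250 bases before the RefSeq start (GRCm38.p6), belong to genes on which the H3K4me3 results turn. Ccdc107, a coiled-coil protein gene, had the lowest KO signal relative to WT of all tested regions on the 3 chromosomes. Melk, a cell cycle kinase, Hpdl, a mitochondrial dioxygenase-like protein, and Pold4, a subunit of DNA polymerase delta, had H3K4me3 in WT libraries only. Jak1, a cytokine receptor kinase, closes the shorter of the 2 stretches described on chromosome 4, and St3gal6, a sialyltransferase, had a higher relative signal in KO on chromosome 16. Capitals mark matches on either strand to the GC box GGGCGG, the CCAAT box, the TATA box as TATAAA, the E-box bound by Myc as CACGTG and the AP-1 site bound by Jun as TGANTCA.
Ccdc107, chr4:43493115-43493364, plus strand: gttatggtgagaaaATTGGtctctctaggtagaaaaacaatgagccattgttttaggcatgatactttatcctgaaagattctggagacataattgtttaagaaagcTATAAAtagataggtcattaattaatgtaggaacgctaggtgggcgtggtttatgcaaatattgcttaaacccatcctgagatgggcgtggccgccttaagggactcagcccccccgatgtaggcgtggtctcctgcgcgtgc
Melk, chr4:44300667-44300916, plus strand: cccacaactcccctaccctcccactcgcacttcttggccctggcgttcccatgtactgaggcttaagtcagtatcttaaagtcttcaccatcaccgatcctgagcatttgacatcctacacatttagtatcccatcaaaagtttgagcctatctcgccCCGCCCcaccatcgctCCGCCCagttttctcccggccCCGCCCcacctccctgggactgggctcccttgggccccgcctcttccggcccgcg
Jak1, chr4:101265224-101265473, minus strand: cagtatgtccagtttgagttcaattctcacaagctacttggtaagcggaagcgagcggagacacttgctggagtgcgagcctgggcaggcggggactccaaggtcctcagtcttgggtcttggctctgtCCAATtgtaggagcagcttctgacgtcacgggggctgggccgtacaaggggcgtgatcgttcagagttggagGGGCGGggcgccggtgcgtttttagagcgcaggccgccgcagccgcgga
Hpdl, chr4:116821509-116821758, minus strand: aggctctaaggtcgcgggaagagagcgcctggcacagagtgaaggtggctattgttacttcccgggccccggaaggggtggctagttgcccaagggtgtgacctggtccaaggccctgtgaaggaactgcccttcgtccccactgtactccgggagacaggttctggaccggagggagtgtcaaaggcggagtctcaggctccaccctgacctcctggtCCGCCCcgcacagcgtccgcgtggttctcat
St3gal6, chr16:58523427-58523676, minus strand: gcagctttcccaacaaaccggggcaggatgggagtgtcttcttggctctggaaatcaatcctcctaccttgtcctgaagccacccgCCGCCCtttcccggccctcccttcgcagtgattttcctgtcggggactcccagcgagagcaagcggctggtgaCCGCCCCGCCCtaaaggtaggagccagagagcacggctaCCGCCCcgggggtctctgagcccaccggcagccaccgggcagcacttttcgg
Pold4, chr19:4231643-4231892, plus strand: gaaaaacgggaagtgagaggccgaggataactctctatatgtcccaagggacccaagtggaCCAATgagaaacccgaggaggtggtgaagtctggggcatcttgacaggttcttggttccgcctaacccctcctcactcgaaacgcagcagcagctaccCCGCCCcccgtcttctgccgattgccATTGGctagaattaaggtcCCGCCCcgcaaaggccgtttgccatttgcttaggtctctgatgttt
Ccdc107 held 1 CCAAT box and 1 TATA box and had 8 CpG. Melk held 3 GC boxes with 13 CpG, Jak1 held 1 GC box and 1 CCAAT box with 19 CpG, Hpdl held 1 GC box with 14 CpG, St3gal6 held 4 GC boxes with 16 CpG, and Pold4 held 2 GC boxes and 2 CCAAT boxes with 12 CpG. None of the 6 windows held the E-box or the AP-1 site in these letters. Over all 32619 promoter windows of this length, 33.0% held the GC box, 34.0% the CCAAT box, 12.4% the TATA box, 6.06% the E-box and 6.78% the AP-1 site, and the median window had 6 CpG. The windows of Melk, Jak1, Hpdl and Pold4 overlapped an H3K4me3 peak in 0 KO and 2 WT libraries, and those of Ccdc107 and St3gal6 in 1 KO and 2 WT libraries.

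H3K4me1 took a smaller part of the KO peaks than of the WT peaks on chromosomes 4 and 19 and a larger part on chromosome 16. Chromosome 4 held 4.69 and 4.51% of the KO peaks, against 5.12 and 5.06% of the WT peaks. Chromosome 16 held 3.55 and 3.57% in KO and 3.13 and 3.03% in WT, and chromosome 19 held 2.95 and 2.82% in KO and 3.16 and 3.24% in WT. The libraries of the 2 genotypes did not overlap on any of the 3. They did not overlap on comparison autosomes 1, 2, 3, 5, 6 and 7 either, so this was not particular to the 3. Chromosome 6, for example, held 5.50 and 5.50% in KO and 5.85 and 5.89% in WT. The mean pileup of chromosome 4, as a ratio to the comparison autosomes, was 0.874 and 0.890 in KO and 0.926 and 0.921 in WT. On chromosome 16 this ratio was 0.941 and 0.943 in KO and 0.885 and 0.886 in WT, and on chromosome 19 it was 1.02 and 1.01 in KO and 1.06 and 1.05 in WT. Chromosomes 16 and 4 thus stood below the genome's level in all 4 libraries and chromosome 19 above it. On chromosome 4 the mean fold ratio of peaks to their local background was also taken relative to the comparison autosomes. It overlapped between the genotypes, at 1.002 and 1.010 in KO and 1.005 and 1.002 in WT. The share and pileup values chose the chromosomes, and no value here carries a test.

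Regions with a peak in all 4 libraries of a mark, called shared regions here, allow the same sites to be compared. Among H3K4me1 shared regions the median log2 difference in relative pileup, KO minus WT, was −0.06 on chromosome 4 over 1172 regions, with quartiles of −0.30 and 0.17. It was 0.17 on chromosome 16 over 819 regions (quartiles −0.08 and 0.37) and −0.09 on chromosome 19 over 851 regions (quartiles −0.31 and 0.14). Both KO libraries lay below both WT libraries at 27.7% of the shared regions of chromosome 4, 12.3% of chromosome 16 and 30.3% of chromosome 19, where the comparison autosomes had 23.2%. Among these, chromosome 6 had 29.3% and a median log2 difference of −0.07, so the lean of chromosome 4 was not particular to it. Both KO libraries lay above both WT libraries at 19.1%, 36.8% and 14.6%, where the comparison autosomes had 22.2%.

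H3K4me1 regions found in both libraries of one genotype and in neither of the other leaned the same ways. Chromosome 4 held 196 KO-only regions (4.06% of its regions) and 413 WT-only regions (8.55%). Chromosome 16 held 228 KO-only (7.0%) and 167 WT-only (5.13%), and chromosome 19 held 114 KO-only (4.03%) and 239 WT-only (8.44%). The comparison autosomes had 5.09% of their regions KO-only and 6.72% WT-only, and chromosome 6 among them had 4.89% and 8.23%. A site without a peak stayed under the peak threshold of that library, which does not show that it lacked the mark.

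The mean pileup of H3K4me3 was lower in KO relative to the comparison autosomes on chromosomes 4 and 19 and higher on chromosome 16. Its relative mean pileup on chromosome 4 was 0.821 and 0.823 in KO and 0.878 and 0.879 in WT (log2 KO over WT −0.10). On chromosome 16 it was 0.936 and 0.947 in KO and 0.886 and 0.873 in WT (0.10), and on chromosome 19 it was 1.01 and 1.03 in KO and 1.14 and 1.12 in WT (−0.15). All 3 have the sign that the H3K4me1 pileup has on the same chromosome. The share of H3K4me3 peaks on chromosome 4 was 5.64 and 5.63% in KO and 6.07 and 6.05% in WT (log2 −0.11). On chromosome 16 it was 3.05 and 3.23% in KO and 2.97 and 2.97% in WT (0.08), and on chromosome 19 it was 3.66 and 3.46% in KO and 3.40 and 3.41% in WT (0.07). Chromosome 19 therefore held a higher share of H3K4me3 peaks in KO with a lower relative pileup, and its share difference turned to −0.02 when every list was trimmed to the same length. Each of the 6 comparisons had an exact two-sided permutation p of 0.333, also 0.333 after Benjamini-Hochberg adjustment over the 6, which is the smallest p that 2 against 2 libraries allow.

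H3K4me3 shared regions were mostly higher in KO on chromosome 16, mostly lower on chromosome 19 and evenly spread on chromosome 4. The median log2 difference, KO minus WT, was −0.01 on chromosome 4 (450 regions, quartiles −0.18 and 0.17), 0.17 on chromosome 16 (265 regions, −0.01 and 0.32) and −0.15 on chromosome 19 (301 regions, −0.29 and 0.03). Both KO libraries lay above both WT libraries at 44.2% of the shared regions of chromosome 16 and below them at 6.42%. On chromosome 19 they lay above at 9.30% and below at 41.2%, and on chromosome 4 above at 17.8% and below at 21.8%. The comparison autosomes had 22.0% above and 20% below. Their chromosome medians reached from −0.09 on chromosome 6 to 0.14 on chromosome 11, so chromosome 19 had a lower median, and chromosome 16 a higher one, than any of the 15, while chromosome 4 lay among them.

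**Figure D1:**
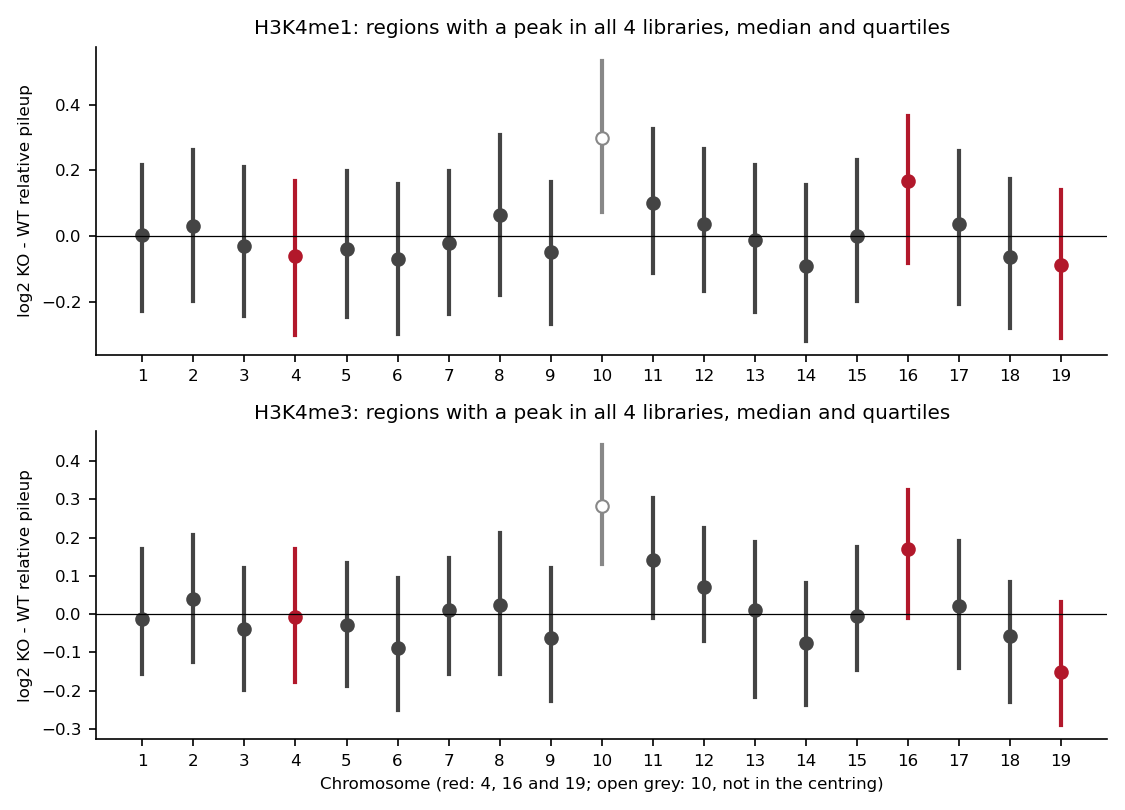
Median and quartiles, by chromosome, of the log2 difference in relative pileup (KO minus WT) at regions with a peak in all 4 libraries of a mark, with H3K4me1 above and H3K4me3 below. Chromosomes 4, 16 and 19 are in red, and chromosome 10, left out of the centring, is an open grey point. Chromosome 16 stands at 0.17 in both marks, and chromosome 19 at −0.09 in H3K4me1 and −0.15 in H3K4me3.

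H3K4me3 was found in both WT libraries and neither KO library at 230 regions of chromosome 4 (21.2%), 94 of chromosome 16 (18.0%) and 129 of chromosome 19 (21.2%), beside 21.6% on the comparison autosomes. KO-only regions numbered 0, 0 and 1, beside 0.0569% there. At gene ends, scored within 1 kb of either end of a protein-coding gene, 17.4% of the chromosome 4 genes with H3K4me3 were WT-only, as were 11.6% on chromosome 16 and 13.0% on chromosome 19, against 15.0% on the comparison autosomes, and 0% of the genes were KO-only on any of these. Fewer gene ends carried H3K4me1. Of those that did, 2.53% were KO-only and 10.5% WT-only on chromosome 4, 7.14% and 4.29% on chromosome 16, and 4.20% and 10.7% on chromosome 19, beside 5.06% and 6.21% on the comparison autosomes.

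The 3 chromosomes were next divided into bins of 10 Mb, and a bin was counted where both KO libraries lay on one side of both WT libraries. On chromosome 4 the H3K4me1 share was lower in KO in 13 of 16 bins and higher in 2, where the comparison bins were lower in 37.2% and higher in 29.5%. The relative pileup of H3K4me1 there was lower in KO in 9 bins and higher in 2, beside 30.4% and 32.4% of comparison bins. On chromosome 16 the KO share was higher in 8 of 10 bins and lower in 1, and the KO pileup was higher in 9 bins and lower in 0. On chromosome 19 share and pileup were each lower in KO in 5 of 7 bins. Read by the shared regions of each bin, all 10 bins of chromosome 16 had an H3K4me1 median above 0, from 0.03 to 0.34, and all 7 bins of chromosome 19 had one below 0, from −0.17 to −0.05. Chromosome 4 had 13 bins below 0 and 3 above, from −0.25 to 0.17.

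H3K4me3 bins told chromosome 4 apart from the other 2. All 10 bins of chromosome 16 had a shared-region median above 0, from 0.09 to 0.24, and all 7 bins of chromosome 19 had one below 0. Of 15 chromosome 4 bins with such regions, 7 lay below 0 and 8 above. By pileup, both KO libraries were higher in 6 of 10 bins of chromosome 16 and lower in 1, higher in 1 of 7 bins of chromosome 19 and lower in 4, and higher in 3 of 16 bins of chromosome 4 and lower in 7. Of the comparison bins 32.5% were higher and 26.6% lower. By share, KO was lower in 8 bins of chromosome 4 and higher in 2, beside 27.6% and 26.6%. Among the 15 comparison autosomes, 1, chromosome 11, had every bin on one side of 0 in both marks.

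**Figure D2:**
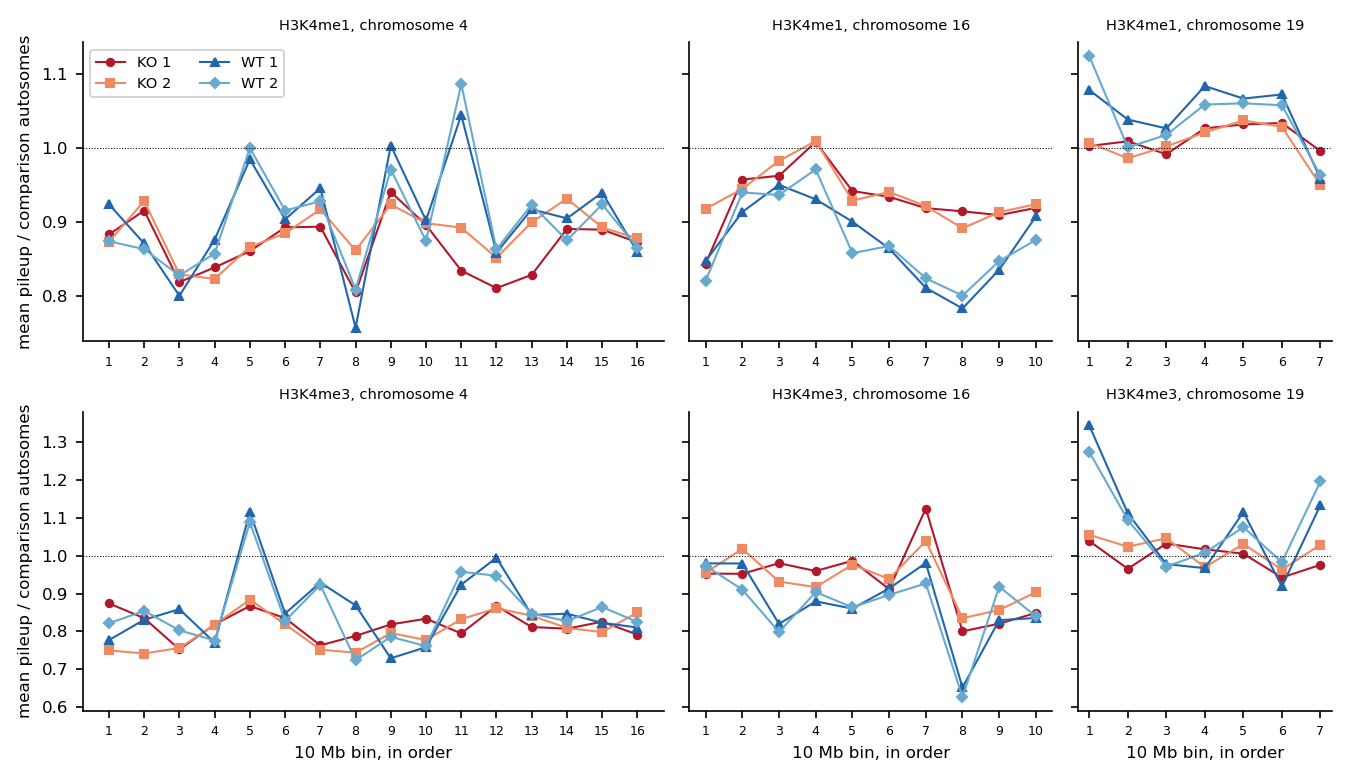
Mean pileup of each 10 Mb bin as a ratio to the comparison autosomes of the same library, with H3K4me1 in the upper row, H3K4me3 in the lower row and bins in order along chromosomes 4, 16 and 19. KO libraries are in red and orange, WT libraries in dark and light blue. In H3K4me1 the WT libraries peak at 1.04 and 1.09 in the 11th bin of chromosome 4, where KO is at 0.834 and 0.892, and KO runs above WT over most of chromosome 16.

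The H3K4me1 bins of chromosome 4 differed in size and sign. Its share was lower by 0.488 percentage points in KO, of which 3 bins described next made up 0.153 on balance and the other 13 bins 0.335. Between 100 and 110 Mb the KO libraries placed 0.429 and 0.373% of their peaks and the WT libraries 0.582 and 0.523%, a ratio of 0.726. The relative pileup of that bin was 0.834 and 0.892 in KO and 1.04 and 1.09 in WT, and it held 11 KO-only and 59 WT-only regions. Between 40 and 50 Mb the share was 0.289 and 0.279% in KO and 0.359 and 0.359% in WT, with a relative pileup of 0.860 and 0.866 in KO and 0.984 and 0.999 in WT. Between 70 and 80 Mb the order was the other way, with 0.192 and 0.196% of the KO peaks and 0.124 and 0.117% of the WT peaks, a ratio of 1.61, and 28 KO-only against 5 WT-only regions.

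Part of the excess of KO peaks between 70 and 80 Mb lay in Ptprd, a receptor tyrosine phosphatase gene of 2271 kb whose product organises synapses. The whole bin had 115 and 104 peaks in KO and 77 and 66 in WT. Within Ptprd the KO libraries had a peak at 35 and 33 regions and the WT libraries at 13 and 14. Of its 43 regions 14 were KO-only, out of 28 in the bin, and 0 were WT-only. The 9 shared ones had a median log2 difference of 0.35. The best-ranked KO-only region of the gene, at chr4:76972487-76973546, had a pileup of 25 and 21 in the KO libraries. Frmd3, a gene of the FERM family in the same bin, had 4 KO-only and 0 WT-only regions. The KO libraries held peaks at 6 and 7 of its regions, where WT held 1 and 0. Kdm4c, which lies between Frmd3 and Ptprd, had 1 KO-only and 1 WT-only among 6 regions.

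Genes of chromosome 4 with no KO-only and at least 4 WT-only H3K4me1 regions were Cachd1, Pde4b, Macf1, Pappa and St3gal3. Pde4b, a cAMP phosphodiesterase, had 5 WT-only regions, and peaks at 12 and 13 of its regions in KO and 22 and 18 in WT. Pappa, a protease that releases IGF from its binding proteins, had peaks at 13 and 11 regions in KO and 21 and 19 in WT. Macf1 links actin to microtubules, and had peaks at 12 and 10 regions in KO and 20 and 18 in WT. On the comparison autosomes 14 of 16948 genes had such a KO-only pattern and 31 such a WT-only pattern.

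**Figure D3:**
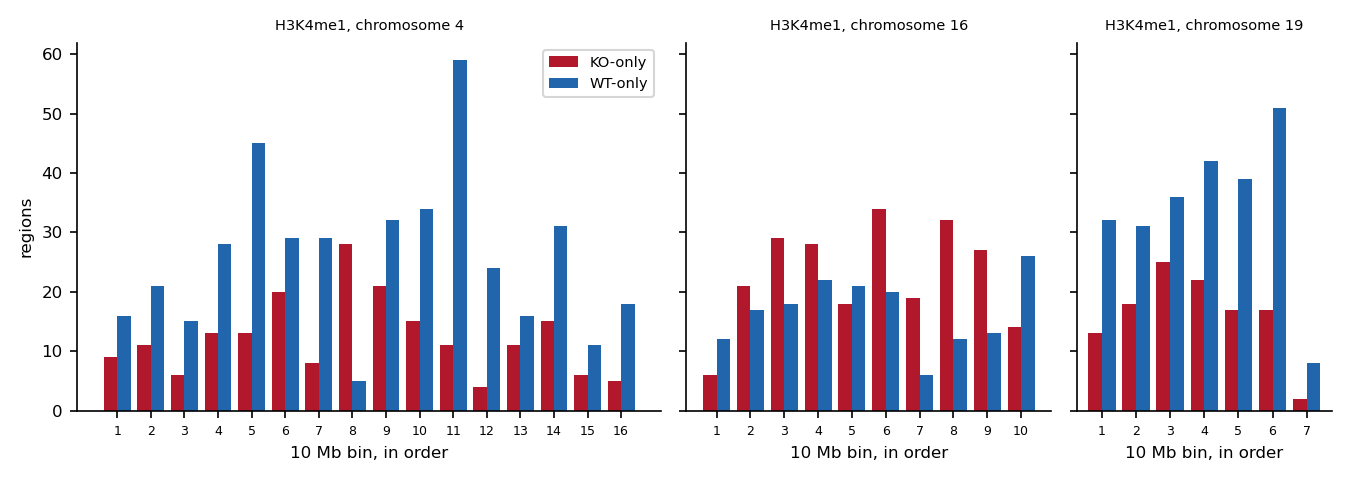
Number of H3K4me1 regions found in both libraries of one genotype and in neither of the other, in 10 Mb bins in order along chromosomes 4, 16 and 19, with KO-only in red and WT-only in blue. The 11th bin of chromosome 4 has 11 KO-only and 59 WT-only regions, the 8th bin has 28 and 5, and every bin of chromosome 19 has fewer KO-only than WT-only regions.

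Single regions were tested for H3K4me3 with limma over all 8345 shared regions, and calls were made at a Benjamini-Hochberg adjusted p of 0.05. On the 3 chromosomes 11 of 1016 regions were higher in KO and 16 were lower. Over the whole test 1.20% of regions were called higher and 0.348% lower, and away from the 3 chromosomes 1.21% and 0.177%. Chromosome 4 accounted for 14 of the 16 lower regions and 5 of the 11 higher ones, chromosome 16 for 0 and 5, and chromosome 19 for 2 and 1. At an unadjusted p of 0.05 chromosome 4 had 26 regions higher in KO (5.78%) and 43 lower (9.56%), chromosome 16 had 39 (14.7%) and 1 (0.377%), and chromosome 19 had 11 (3.65%) and 37 (12.3%). The other chromosomes had 8.45% higher and 4.65% lower. With WT replicate 1 left out limma called 0 higher and 0 lower, with 22 and 27 at an unadjusted p of 0.05. With WT replicate 2 left out it also called 0 and 0, with 18 and 21 unadjusted. With KO replicate 1 left out it called 27 higher and 33 lower, and with KO replicate 2 left out 18 and 46.

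Of the 14 lower regions of chromosome 4, 12 lay in one stretch from Rpp25l to Polr1e (chr4:41711033-45035279, 3.32 Mb, 75 protein-coding genes), whose edges were set after the values had been seen. It held 20 shared H3K4me3 regions, and both KO libraries lay below both WT libraries at 19 of them. Their median log2 difference was −0.79, against 0.00 over the 430 shared regions of chromosome 4 outside it. In the KO libraries the stretch stood at the level of its chromosome, with a median log2 level of −0.28 and −0.26 inside and −0.39 and −0.26 outside. In the WT libraries it stood above it, at 0.60 and 0.45 inside and −0.30 and −0.29 outside. Of its 50 H3K4me3 regions 0 were KO-only and 9 (18.0%) WT-only, a share below the 21.2% of the whole chromosome.

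The called regions lay at the ends or within the bodies of genes with unrelated roles. Ccdc107 had a pileup of 10 and 10 in KO and 176 and 94 in WT, and its relative signal fell by 1.66 on the log2 scale (SE 0.18, limma adjusted p 2.5e-05). The groups lay far apart at this gene even after centring, at −0.77 and −0.85 in KO and 0.80 and 0.91 in WT. Dctn3, a dynactin subunit of the dynein motor, had 12 and 15 in KO and 174 and 80 in WT (log2 −1.11, limma adjusted p 0.00124).

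Other called genes of the stretch lay between −0.99 and −0.74 on the log2 scale. They included Rpp25l, which resembles a ribonuclease P subunit (−0.89), Fancg of the Fanconi anaemia DNA repair pathway (−0.95), the mitochondrial proteins Stoml2 (−0.86) and Hint2 (−0.90), the Rab effector Rusc2 (−0.99), the cofilin pathway kinase Tesk1 (−0.99) and the Golgi-associated Glipr2 (−0.78). Il11ra1, the receptor subunit for interleukin 11, stood at −0.74, but it has near-identical copies in this stretch among which reads could be split, so its value is uncertain. Vcp (−0.55), Clta (−0.67), Zcchc7 (−0.60), Gne (−0.36) and Reck (−0.30) had values below 0 that limma did not call. The exception was a region inside Atp8b5, a phospholipid flippase gene, with a pileup of 19 and 26 in KO and 32 and 29 in WT. Its relative signal rose by 1.57 (limma adjusted p 0.00136), and it was also an MLL4 peak in all 4 MLL4 libraries.

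Regions just outside the stretch had values on both sides of 0. The 3 nearest shared regions before the stretch, at Dcaf12, Kif24 and Fam219a, had log2 differences of −0.16, 0.04 and 0.28, and the 3 after it, at Fbxo10, Tomm5 and Exosc3, had 0.53, −0.05 and 0.37. None of these 6 was called by limma. A running median over 9 shared regions reached −0.90 inside the stretch, at Rusc2, while its lowest value on any comparison autosome was −0.46. The longest run of neighbouring shared regions with both KO libraries below both WT libraries was 11 on chromosome 4, and at most 6 on a comparison autosome.

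**Figure D4:**
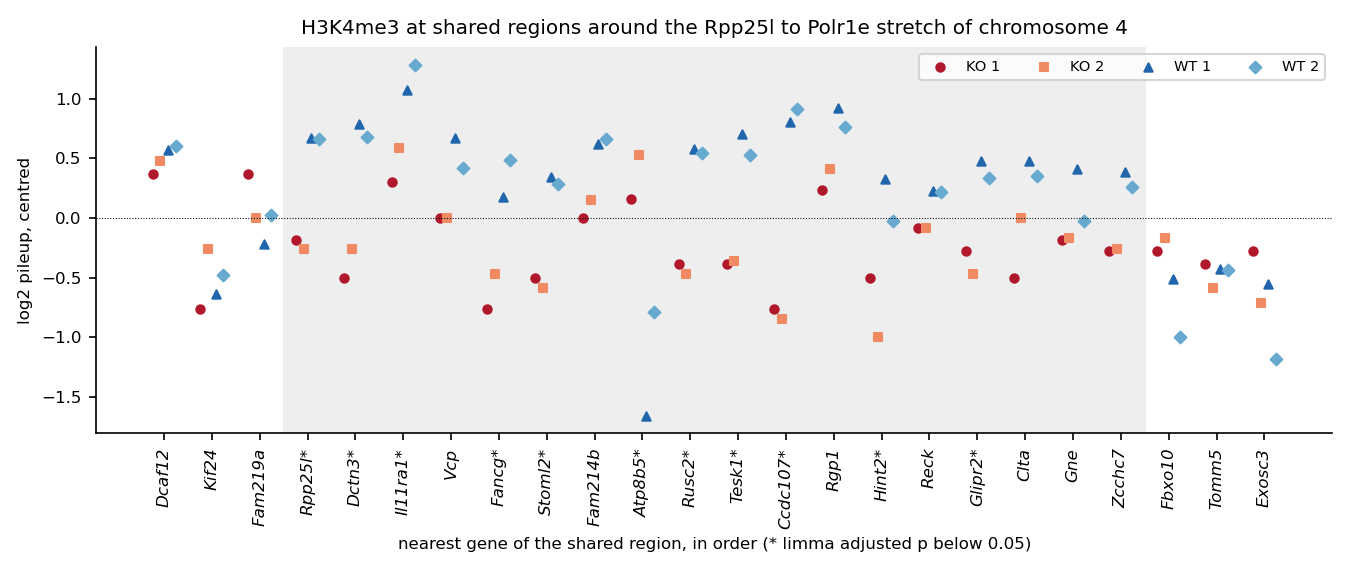
Centred log2 H3K4me3 pileup in each library at 18 of the 20 shared regions of the Rpp25l to Polr1e stretch (shaded) and at the 3 nearest shared regions on either side, in order along chromosome 4. KO libraries are in red and orange and WT libraries in blues, and asterisks mark regions called by limma. Inside the shading the KO points lie below the WT points at 17 of the 18 regions, Atp8b5 being the other one, and outside it they mix.

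H3K4me1 in the same stretch went the same way. Of its 127 H3K4me1 regions, 3 were KO-only (2.36%) and 27 WT-only (21.3%). Of 19 shared regions 18 had a log2 difference below 0, with a median of −0.52. The median pileup of these shared regions was 19 and 17 in KO and 31 and 31 in WT. Among the WT-only H3K4me3 regions were the start of Melk (chr4:44300817-44301958), with a pileup of 111 and 53 in WT, and a site near Ccl21a (chr4:42766693-42767258), with 83 and 44. Ccl21a encodes a chemokine of lymphoid tissue and has near-identical copies nearby, which makes the placement of its reads uncertain.

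A shorter stretch of the same kind ran from Ube2u to Jak1 (chr4:100477867-101266282, 0.788 Mb, 4 genes). All 15 of its shared H3K4me1 regions had a log2 difference below 0, with a median of −0.95, and both KO libraries lay below both WT libraries at 13. It had 0 KO-only and 9 WT-only H3K4me1 regions, of which 2 in Cachd1 and 1 in Raver2 were the best-ranked WT-only regions of the chromosome. The Raver2 site, at chr4:101144216-101145333, had a pileup of 42 and 36 in WT. H3K4me3 at Jak1 had a pileup of 10 and 18 in KO and 189 and 89 in WT, a log2 difference of −1.25 ± 0.21 (SE, limma adjusted p 0.00195). At Cachd1, whose product modulates calcium channels, it had 13 and 17 in KO and 188 and 83 in WT (−1.05, adjusted p 0.00217). The nearest shared regions on either side, at Ror1 (0.24) and Ak4 (0.08), were not called.

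Both stretches together held 0.117 and 0.128% of the H3K4me1 peaks in KO and 0.218 and 0.223% in WT, with a relative pileup of 0.873 and 0.866 in KO and 1.22 and 1.21 in WT. Their H3K4me3 pileup was 0.840 and 0.878 in KO and 1.38 and 1.41 in WT. With both left out, the KO over WT ratio of the H3K4me1 pileup on chromosome 4 was 0.970, where the whole chromosome had 0.955, and that of the H3K4me1 share was 0.920, where the whole chromosome had 0.904. The H3K4me3 pileup ratio was then 0.965, a log2 value of −0.05 in place of −0.10. Without them limma called 2 regions lower on the 3 chromosomes, both on chromosome 19.

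**Figure D5:**
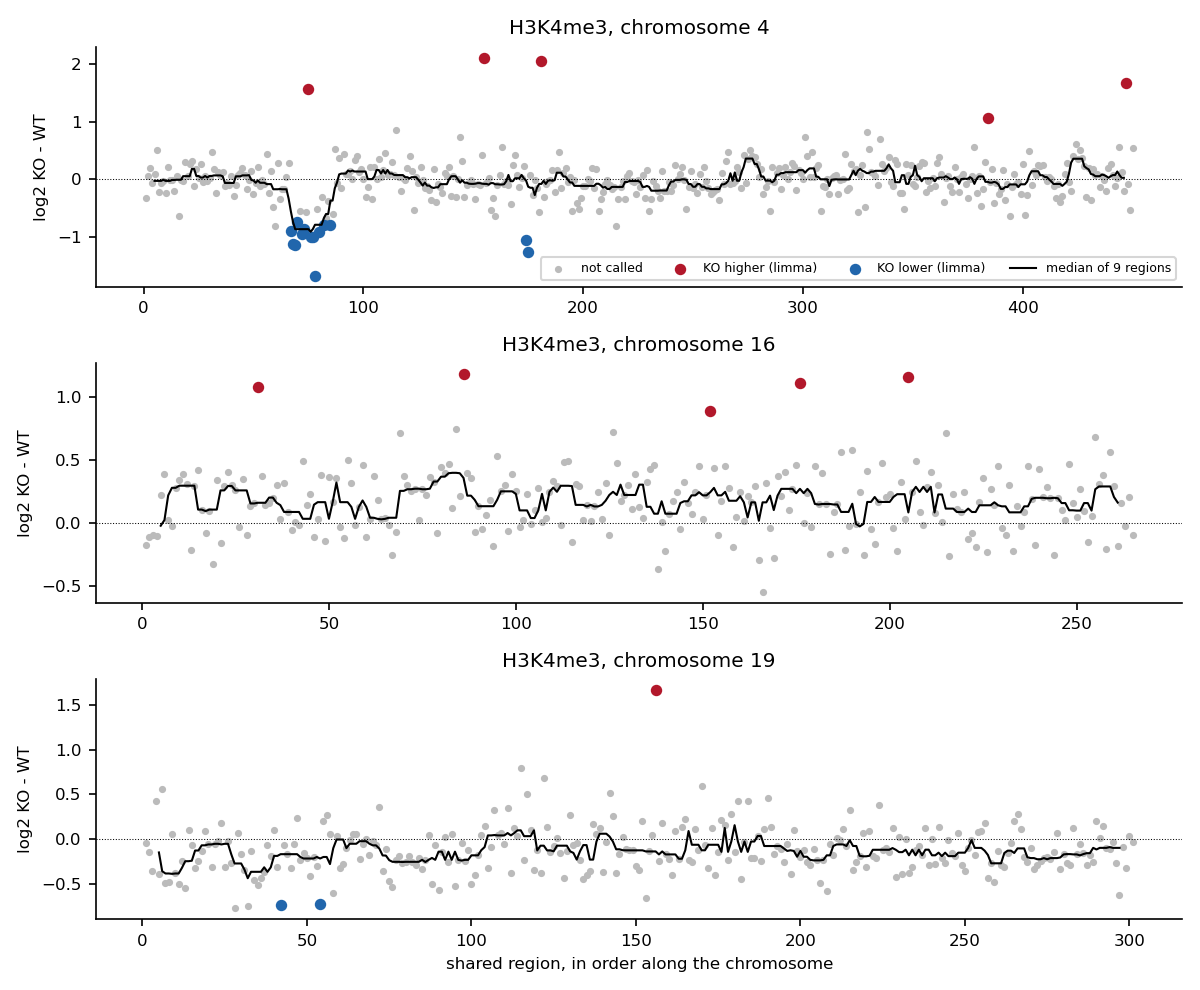
Log2 difference (KO minus WT) of the relative H3K4me3 pileup at every shared region, in order along chromosomes 4, 16 and 19, with the running median over 9 regions as a line. Red points were called higher and blue points lower in KO by limma. Chromosome 4 shows 1 dip to −0.90 around a flat line, chromosome 16 runs above 0 and chromosome 19 below 0 over most of their length.

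The remaining calls of chromosome 4 were higher in KO and weak in WT. A region inside Acer2, an alkaline ceramidase gene, had a pileup of 13 and 9 in KO and 15 and 7 in WT, a log2 difference of 2.1 (adjusted p 1.24e-04). A region inside Usp24, a deubiquitinase gene, had 14 and 19 in KO and 17 and 15 in WT (2.05, adjusted p 1.56e-04). It was also an MLL4 peak in all 4 MLL4 libraries, and the best-ranked KO-only H3K4me1 region of the chromosome lay at the same place (chr4:106422129-106422593). C1qtnf12, which encodes a hormone of fat tissue (1.67), and Tmem51 (1.06) were also called. Tmem51 had a raw pileup of 9 and 11 in KO and 27 and 14 in WT, which was lower in KO, and the raw pileups of the other 3 overlapped between the genotypes. These calls are thus differences relative to the rest of each library. Only regions with a peak in all 4 libraries were tested, and the median H3K4me3 pileup was 16 and 17 in KO and 72 and 39 in WT. A region this weak in WT was therefore tested only where its relative KO level was high enough for a peak. The filter thus favoured differences above 0 among such regions, and their sign is not an independent result.

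Over all 3 chromosomes the called regions sorted by their WT level. The 11 regions higher in KO had a centred log2 WT level of −2.79 to −0.60, and the 16 lower ones had 0.15 to 1.23. The KO levels of those 11 went down to −0.96 only. Since a peak was needed in all 4 libraries, a region far below that level in WT could hardly be tested without a difference above 0. The sorting is thus partly set by the filter. Across the 6694 shared regions of the comparison autosomes the WT level and the log2 difference had a Pearson correlation of −0.50. This is a description, since both contain the WT value, the regions share their libraries and the same filter chose them. In each of 5 classes of WT level, chromosome 16 had a median difference above that of the comparison autosomes, and chromosome 19 and chromosome 4 outside the longer stretch had one below it. Among regions with a WT level between −0.5 and 0, the median difference was 0.16 on chromosome 16 (141 regions), −0.05 on chromosome 19 (75 regions) and −0.01 on chromosome 4 outside the longer stretch (223 regions), against 0.04 on the comparison autosomes. Between 0.25 and 0.5 it was 0.01 on chromosome 16 (13 regions), −0.20 on chromosome 19 (73 regions) and −0.11 on chromosome 4 (14 regions), against −0.08. Above 0.5 it was −0.03 on chromosome 16 (2 regions), −0.26 on chromosome 19 (51 regions) and −0.48 on chromosome 4 (9 regions), against −0.11, so that there chromosome 4 lay below chromosome 19. These 9 regions still include Cachd1 (−1.05) and Jak1 (−1.25) of the shorter stretch. In the lowest class the median difference was 0.31, 0.12 and 0.16 on chromosomes 16, 19 and 4, against 0.28, and between 0 and 0.25 it was 0.06, −0.15 and −0.11, against −0.04. Chromosome 19 also began from a higher WT level, a median of 0.17, where chromosomes 4 and 16 had −0.29 and −0.28.

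At shared regions chromosome 16 had a higher relative signal in KO along its length, with the H3K4me1 difference widest between 60 and 90 Mb. In that part the KO libraries placed 0.950 and 0.975% of their H3K4me1 peaks and the WT libraries 0.743 and 0.687%, a ratio of 1.35, with a relative pileup of 0.913 and 0.907 in KO and 0.808 and 0.823 in WT. It held 78 KO-only and 31 WT-only regions. The ratio of KO to WT was 1.11 for share and 1.05 for pileup from 0 to 60 Mb, and 1.01 and 1.03 from 90 Mb to the end. For the H3K4me3 pileup it was 1.07, 1.12 and 1.05 over the same 3 parts. The median log2 difference of H3K4me3 shared regions did not follow this order. It was 0.18, 0.12 and 0.16, and so lowest between 60 and 90 Mb, where 27 regions were shared. Within that part the H3K4me3 pileup ratio was 1.28 from 70 to 80 Mb and 0.959 from 80 to 90 Mb. The edges of these parts were set after the values had been seen.

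Lsamp, Cadm2 and Fgf12 were the genes of chromosome 16 with no WT-only and at least 4 KO-only H3K4me1 regions. Lsamp, an adhesion protein of limbic neurons, had H3K4me1 peaks at 30 and 26 regions in KO and 11 and 11 in WT, with 6 KO-only and 0 WT-only regions. Cadm2, a synaptic cell adhesion molecule, had 25 and 26 in KO and 18 and 11 in WT, and Fgf12, an intracellular fibroblast growth factor homologue, had 7 and 5 in KO and 1 and 0 in WT. Lsamp and Fgf12 lie before the 60 Mb mark. Other long genes of the chromosome were mixed or leaned the other way, with 4 KO-only and 2 WT-only regions in Robo1 and 1 KO-only and 7 WT-only regions in Rbfox1. The widest differences at shared regions between 70 and 80 Mb included one in the Slit receptor gene Robo1, with a pileup of 23 and 24 in KO and 13 and 13 in WT (log2 0.95), and one in Robo2, with 19 and 15 in KO and 8 and 11 in WT (0.95). Between 60 and 70 Mb the widest had no gene within 100 kb (chr16:69033434-69035401) and a pileup of 24 and 24 in KO and 10 and 14 in WT (1.12).

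The best-ranked KO-only H3K4me1 regions of chromosome 16 were 2 sites with no gene within 100 kb and a site in Kalrn (chr16:34179857-34180943, pileup 19 and 17 in KO). The best WT-only ones lay in Rbfox1, a splicing regulator (chr16:5887510-5888755, pileup 21 and 16 in WT), in the calcineurin inhibitor Rcan1 and near N6amt1. Rbfox1 lies between 0 and 10 Mb, the only bin of the chromosome in which the KO share was lower, at a ratio of 0.845.

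All 5 H3K4me3 calls of chromosome 16 were higher in KO relative to the rest of each library, while their raw pileups were lower in KO. Their centred log2 WT levels went from −2.07 to −0.60. The filter favoured differences above 0 among regions weak in WT, so their shared sign is not an independent result. St3gal6 had a pileup of 18 and 23 in KO and 47 and 29 in WT, and its relative signal rose by 1.16 on the log2 scale (SE 0.21, limma adjusted p 0.00393). B3gnt5, another glycosyltransferase, rose by 1.18 (adjusted p 0.010), Cd200, an inhibitory ligand of myeloid cells, by 1.11 (0.0398), and the trafficking protein Sec22a by 0.90 (0.0388). A region inside Zc3h7a, with a pileup of 25 and 24 in KO and 65 and 34 in WT, rose by 1.08 (0.00232) and was an MLL4 peak in all 4 MLL4 libraries. The longest run of neighbouring shared regions with both KO libraries above both WT libraries was 8 on chromosome 16 and at most 7 on a comparison autosome. The WT-only H3K4me3 regions that ranked best lay inside Tmem191c, Senp7, a SUMO protease, and Arvcf, a catenin. Their WT pileups were 69 and 42, 43 and 20, and 44 and 25.

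At shared regions chromosome 19 had a lower relative signal in KO along its length, and H3K4me3 differed most at its start. Between 0 and 10 Mb the H3K4me3 pileup ratio was 1.04 and 1.06 in KO and 1.34 and 1.27 in WT, while the bin's share of peaks was 1.31 and 1.29% in KO and 1.09 and 1.16% in WT. From 10 Mb to the end the KO over WT ratio of the pileup was 0.967, where the first bin had 0.800. Between 20 and 30 Mb the order was reversed, at 1.03 and 1.05 in KO and 0.978 and 0.971 in WT. From 30 to 40 Mb and from 50 to 60 Mb the ratio was close to 1, at 1.01 and 1.00. Shared regions were lower in KO in both parts, with a median log2 difference of −0.19 over 116 regions in the first bin and −0.14 over 185 in the rest. A run of 8 neighbouring shared regions had both KO libraries below both WT libraries.

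Called H3K4me3 regions on chromosome 19 were few. Sf3b2, a subunit of the splicing factor SF3B, had a pileup of 17 and 21 in KO and 168 and 98 in WT, and fell by 0.74 on the log2 scale (SE 0.17, limma adjusted p 0.0322). A region at Pcnx3, with 15 and 16 in KO and 151 and 72 in WT, fell by 0.73 (adjusted p 0.0362). Pgm5, a phosphoglucomutase-related protein of muscle adhesions, had 14 and 14 in KO and 23 and 14 in WT, and its relative signal rose by 1.66 (limma adjusted p 3.62e-04). This region was weak in WT, so the filter favoured a difference above 0 here too. WT-only H3K4me3 regions that ranked best lay at Pold4 (chr19:4231481-4232594), with a WT pileup of 78 and 37, at the interferon-induced family member Ifit1bl1 (79 and 43), which has near-identical copies and is uncertain, and near Gm815 (66 and 31). The single KO-only region (chr19:52034645-52035009) had a pileup of 9 and 6 in KO and no gene within 100 kb.

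In H3K4me1, chromosome 19 had WT-only clusters in Sorcs1, a sorting receptor of neurons, and Tcf7l2, a transcription factor of the Wnt pathway. Each had 0 KO-only and 4 WT-only regions. Sorcs1 had peaks at 6 and 3 regions in KO and 8 and 9 in WT, and Tcf7l2 at 12 and 6 in KO and 20 and 14 in WT, but the 6 shared regions of Tcf7l2 had a median log2 difference of 0.08. The H3K4me1 share was lowest in KO between 40 and 50 Mb, at a ratio of 0.851, and the widest difference at a shared region there lay near Mfsd13a, with a pileup of 13 and 17 in KO and 37 and 37 in WT (log2 −1.21). Between 0 and 10 Mb the widest lay in Pola2, a primase-complex subunit, with 24 and 18 in KO and 37 and 40 in WT (−0.79), and in Cpt1a, which carries fatty acids into mitochondria, with 20 and 21 in KO and 38 and 37 in WT (−0.77). The best-ranked WT-only regions lay near Lrp5, a Wnt coreceptor (chr19:3692661-3693900, pileup 22 and 23 in WT), and near Cfap58. The best KO-only ones lay in Vti1a, Hpse2 and Pip5k1b.

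The marks were also compared bin by bin. Over the 33 bins of the 3 chromosomes the log2 KO over WT pileup ratios of H3K4me1 and H3K4me3 had a Pearson correlation of 0.60, and over the 203 comparison bins one of 0.32, as a description of bins that share the same fibroblast genotypes. The 0.60 pools chromosomes that were selected on H3K4me1 differences of opposite sign, so it includes differences between chromosomes. Within chromosomes 4, 16 and 19 the correlation was 0.42, 0.40 and 0.27. Both marks lay on the same side of a ratio of 1 in 20 of the 33 bins (60.6%) and in 130 of the 203 comparison bins (64.0%). The 20 were made up of 9 of 16 on chromosome 4, 8 of 10 on chromosome 16 and 3 of 7 on chromosome 19. Chromosome 19 is gene-rich with 11.5 protein-coding genes per Mb, against 8.50 on chromosome 4 and 6.92 on chromosome 16.

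Lists of regulators and fibroblast genes on each chromosome, chosen for their roles in growth, signalling and matrix, were scored for H3K4me3 at their gene ends. On chromosome 4, 36 genes such as Cdkn2a and Cdkn2b (inhibitors of the cell cycle), Jun (an Fbxw7 target), Mycl (a relative of Myc) and Col16a1 were listed. Of these 10 had H3K4me3 at a gene end in all 4 libraries, 0 were KO-only, 8 were WT-only, among them Cdc20, E2f2 and Tnc, and 10 had none. The WT-only genes made up 30.8% of the 26 listed genes with H3K4me3, beside 17.4% of all such genes of the chromosome. The 11 with a shared region had a median log2 difference of 0.04, with 8 above 0 and 3 below, beside −0.01 for the chromosome. On chromosome 16, 18 of 35 listed genes had a shared region, with a median of 0.30, 16 above 0 and 2 below, beside 0.17 for the chromosome. On chromosome 19, 21 of 36 had one, with a median of −0.17, 5 above 0 and 16 below, beside −0.15.

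No listed gene was called by limma. At an unadjusted p of 0.05 there were 2 higher and 0 lower of 11 on chromosome 4, 5 and 0 of 18 on chromosome 16, and 1 and 2 of 21 on chromosome 19. Over all 8345 regions 8.33% were higher and 5.06% lower at that p. The kinase Dyrk1a on chromosome 16 had a pileup of 13 and 19 in KO and 51 and 31 in WT (log2 0.68 ± 0.23 SE, limma adjusted p 0.173). Snai2, a transcription factor of mesenchymal cells, had 25 and 36 in KO and 135 and 65 in WT (0.38, adjusted p 0.367). On chromosome 19 Esrra, a nuclear receptor of mitochondrial genes, had 18 and 19 in KO and 162 and 67 in WT (−0.47, adjusted p 0.236), and Psat1, a serine synthesis enzyme, had 19 and 18 in KO and 140 and 67 in WT (−0.37, adjusted p 0.367). On chromosome 4 the receptor kinase Epha2 had 17 and 21 in KO and 67 and 40 in WT (0.57, adjusted p 0.207).

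MLL4 itself had peaks at 10 merged sites on the 3 chromosomes, of which 5 were found in all 4 MLL4 libraries and 1, on chromosome 19, was WT-only. At 2 of the 10 sites, inside Atp8b5 and Zc3h7a, all 12 libraries of the series had a peak. Of the 27 regions called for H3K4me3, 3 of the 11 higher in KO and 0 of the 16 lower held an MLL4 peak. The 3 were those inside Atp8b5, Zc3h7a and Usp24, so 2 of them were the sites with a peak in all 12 libraries. Of all 1016 shared H3K4me3 regions on the 3 chromosomes 4 held one (0.394%), and of those on the comparison autosomes 0.299%.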

How the data were processed

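Mouse fibroblast Cut & Run peak lists for H3K4me1 and H3K4me3, and those for MLL4, were used as deposited, 12 lists in all. The authors ran MACS2 2.1.0.20150731 on single libraries without a control, at a q cutoff of 0.01, with a window of 10000 bp for the local background and an extension setting of 147, per the file headers. Duplicates were kept up to 1 fragment per position in 3 H3K4me3 lists and up to 2 in WT replicate 1 of H3K4me3 and all H3K4me1 lists, per the same headers. Per the submitters' processing notes, the build was mm10, and Bowtie2, SAMtools 1.5, bedtools, deepTools and HOMER 4.10 were named with no role. The deposited columns for a peak are its length, its pileup signal (summit fragments with no depth scaling), the −log10 of its p-value and q-value, and its fold ratio to the local background.

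Peaks of chromosomes 1 to 19 and X were merged per mark at an overlap of 1 bp. The relative pileup of a chromosome is the mean over its peaks divided by the mean over the comparison autosomes in the same library. At shared regions, the log2 of the highest pileup was centred on the library's median over the comparison autosomes. H3K4me3 shared regions were tested with limma 3.58.1 (eBayes with trend, R 4.3.3) over 8345 regions with Benjamini-Hochberg adjustment. Tested on simulated data with 200 of 8345 regions changed by 1 on the log2 scale, this recovered 86% with 10 false calls. The simulation gave KO and WT the same spread and applied no peak threshold, so these figures may not hold for the real libraries. For chromosome values the test was an exact permutation of the 4 libraries, two-sided (Python 3.11.15, scipy 1.17.1, pandas 2.3.3, numpy 2.4.6). Bins needed at least 20 H3K4me1 or 5 H3K4me3 peaks in each library.

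Gene positions and promoter windows came from RefSeq tables of GRCm38.p6, whose coordinates are those of mm10. The gene table gives neither strand nor exons, so both ends of a gene were scored within 1 kb and a site inside a gene was not placed in an exon or intron. A region was given the nearest gene within 100 kb. Named were the 3 best-ranked genotype-only regions per chromosome, mark and direction (by the lower of their percentiles of −log10 q), the 3 widest limma calls each way, the widest shared regions of the extreme bins, and list members; a few that these rules name are not reported here. Further limma calls, the edges of the stretches and parts, the running median and the runs, the classes of WT level, the gene minimum of 4 genotype-only regions, and the promoters of Ccdc107, Jak1 and St3gal6 were chosen after the values had been seen. The members and gene lists were themselves chosen with earlier results of these data known. Alternatives were a median or trimmed pileup, a −log10 q of at least 5, equal list lengths, bins of 5 and 20 Mb, a peak over 50% of a region, quantile normalization, a replicate block and each library left out.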

Additional observations from a re-analysis of the deposited data

How the results depend on the processing

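Across the settings listed for the main results, 143 values kept their place, 64 moved and 1 reversed, and the cause was not tested. With every list cut to equal length, the H3K4me3 share of chromosome 19 turned to a log2 of −0.0195, KO-only H3K4me3 regions numbered 15 on chromosome 4 and 7 on chromosome 16, and WT-only ones 49, 8 and 20 on chromosomes 4, 16 and 19. Asking that peaks cover 50% of a region gave 595, 252 and 292 WT-only H3K4me3 regions. At a −log10 q of at least 5, the H3K4me1 share was −0.21 on chromosome 4 and 0.25 on chromosome 16 (log2), KO-only H3K4me1 regions numbered 121 on chromosome 4 and 47 on chromosome 19, H3K4me3 KO-only regions on chromosome 19 numbered 0 and H3K4me3 WT-only regions on chromosome 16 numbered 143. The log2 H3K4me1 pileup of chromosome 16 was 0.0802 by medians, 0.15 over regions of all 4 libraries and 0.0830 without the highest 1% of peaks. That of chromosome 19 was −0.0348 by medians and −0.0828 over regions of all 4 libraries. For H3K4me3 share, KO was lower in 87.5% of 20 Mb bins of chromosome 4 and in 15.4% of 5 Mb bins of chromosome 19, and higher in 20% of 20 Mb bins of chromosome 16. Quantile normalization gave 6 limma calls higher in KO. Of the alternatives added after seeing the data, leaving out both stretches of chromosome 4 gave its H3K4me1 pileup as −0.0445 and left 2 limma calls lower in KO.

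Leaving out each library in turn gave 303 to 712, 327 to 644 and 180 to 386 KO-only H3K4me1 regions on chromosomes 4, 16 and 19, and 567 to 1042, 261 to 478 and 318 to 566 WT-only ones. For H3K4me3 it gave 0 to 4, 0 to 1 and 1 to 4 KO-only regions and 249 to 393, 102 to 164 and 141 to 207 WT-only ones. Limma calls went from 0 to 27 higher and 0 to 46 lower, with 0 in both directions without either WT library. A lone library of a genotype was there assumed to vary like the other genotype's. Same-numbered KO and WT libraries did not deviate together (correlation −0.03 over 8345 regions), and with the replicate number as a block limma called 11 higher and 18 lower, against 11 and 16.

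With 2 libraries per genotype the smallest permutation p is 0.333. Precision was lowest for H3K4me3 in KO, where the median pileup was 16 and 17, against 72 and 39 in WT, and 1 fragment is a visible step. The fragments after filtering numbered 5519477 and 5938102 in KO and 11319701 and 6185767 in WT. A pileup counts fragments, so a difference in the mark and one in the amount of DNA cannot be told apart.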
